A study of Homo sapiens with 16 samples.

Results

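The HOX genes encode homeodomain transcription factors that lie in 4 clusters, HOXA, HOXB, HOXC and HOXD, and were followed here in Ewing sarcoma cells after knockdown of EWS-FLI1. Members were all probe sets of the array annotated to exactly 1 symbol made of HOX, a cluster letter from A to D and a number. This gave 31 probe sets of 24 genes, among 22277 probe sets and 11963 genes in all. By cluster there were 1 gene of HOXA (HOXA2), 9 of HOXB, 7 of HOXC and 7 of HOXD. The other HOX genes were not analysed here, and 3 probe sets that carry several symbols, a HOX gene among them, were left out. Where a gene has several probe sets, the brightest on average across the 16 arrays stands for it. The clusters lie on chromosomes 7 (HOXA), 17 (HOXB), 12 (HOXC) and 2 (HOXD).

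RNA came from A673, an established Ewing sarcoma line, in the clone Asp14, which carries a hairpin against the fusion oncogene EWS-FLI1 that doxycycline switches on. All samples carry this construct, were grown with Zeocin and Blasticidin, and come from 1 clone. Cells taken at the moment of doxycycline addition (0 h, 4 arrays) were compared with cells given 1 ug/ml doxycycline for 18 h (3 arrays), 36 h (3), 53 h (2), 72 h (2) and 96 h (2). Untreated arrays were from 0 h alone, and effects of the drug, of further growth and of fusion loss cannot be told apart.

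HOX genes give cells their position along the body axis and in the limbs. Within a cluster the genes are numbered from the end that acts near the head to the end that acts in the tail and the tips of the limbs, and genes with the same number in different clusters are paralogues of one another. HOX proteins bind DNA together with TALE homeodomain cofactors (the PBX, MEIS and PKNOX families), Polycomb proteins keep HOX clusters silent, and Trithorax (MLL) complexes keep them active. The posterior HOXD genes are known to be active in Ewing sarcoma. EWS-FLI1 binds DNA at GGAA, singly as ETS factors do or in long repeats.

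Expression values are log2 values made by the authors with GCRMA, and a change of 1 is a factor of 2. A gene was tested if it reached a log2 value of 4 on at least 2 arrays, a limit set to leave out values near background. Of the 24 HOX genes 12 passed and 12 did not, so the counts are of 12 tested genes. "Rose" and "fell" are used for changes with a limma adjusted p (Benjamini-Hochberg over 7304 genes) below 0.05. All comparisons against 0 h share the same 4 untreated arrays. Levels of different genes are not compared, since probe sets differ in response.

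The promoters of 3 genes at the posterior end of the HOXD cluster are shown because their calls differed at 36 h. At that time HOXD13 fell, while HOXD11 and HOXD10 rose. HOXD13 fell at the other times too, and HOXD11 fell at 72 h and 96 h. HOXD12 (not tested) lies between HOXD13 and HOXD11. Each sequence is the 250 bases before the start annotated by RefSeq (GRCh38.p14, plus strand), in lower case with GGAA, or TTCC where GGAA is on the other strand, in capitals. The windows are chr2:176092471-176092720 for HOXD13, chr2:176107030-176107279 for HOXD11 and chr2:176116528-176116777 for HOXD10.
HOXD13: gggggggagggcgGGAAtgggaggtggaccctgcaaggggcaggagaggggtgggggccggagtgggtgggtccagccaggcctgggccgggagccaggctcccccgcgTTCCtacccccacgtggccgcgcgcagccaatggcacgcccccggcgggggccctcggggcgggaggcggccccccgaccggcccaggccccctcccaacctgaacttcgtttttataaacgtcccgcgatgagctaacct
HOXD11: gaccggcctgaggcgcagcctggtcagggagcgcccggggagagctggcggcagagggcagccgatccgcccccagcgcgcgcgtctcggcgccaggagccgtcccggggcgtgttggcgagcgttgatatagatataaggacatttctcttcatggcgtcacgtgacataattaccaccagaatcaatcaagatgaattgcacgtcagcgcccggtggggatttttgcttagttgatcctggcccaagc
HOXD10: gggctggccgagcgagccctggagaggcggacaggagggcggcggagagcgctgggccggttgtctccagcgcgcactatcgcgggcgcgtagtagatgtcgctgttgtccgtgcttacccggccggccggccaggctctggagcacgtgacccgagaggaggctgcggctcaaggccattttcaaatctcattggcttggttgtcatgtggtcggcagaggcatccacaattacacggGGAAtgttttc

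The letters GGAA occurred 2 times in the HOXD13 window, 0 times in that of HOXD11 and 1 time in that of HOXD10, on either strand. Of 35116 such windows in the RefSeq table, some of them of the same gene, 92.7% hold GGAA at least once and 76.5% at least 2 times. The tandem GGAAGGAA was in none of the 3 windows and in 3.06% of all windows, and CCGGAAGT, a strong ETS site, was in none of them and in 3.42% of all. TATAAA was found in the HOXD13 window on both strands at overlapping positions, and in 10.7% of all windows. TAAT, the core that many homeodomains bind, was in the windows of HOXD11 (2 times) and HOXD10 (1 time) and not in that of HOXD13, against 47.4% of all. The other tested HOX genes with a window, HOXC4 and HOXD4, each held GGAA 3 times, and TAAT 1 time and 5 times. These are matches of letters and say nothing of binding in these cells.

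The knockdown was seen at every time: FLI1 was at 10.08 ± 0.07 at 0 h (SD, n = 4) and at 6.41 to 6.99 as group means later. The upper quartile of an array ranged from 8.08 to 8.18. Ewing sarcoma markers were present, and 5 to 7 of 8 tested fell at each time, where 14.7% to 39.2% of all tested genes fell; 1 of them, GLI1, rose at 36 h (by 1.57 ± 0.30 (SE), limma adjusted p = 0.000404). Of the markers of blood and epithelial cells, 9 in all, each stayed below log2 3 on all arrays. Of the 5 endothelial markers VWF, CDH5 and TEK did so too, and PECAM1 stayed below log2 4. KDR rose from 36 h on, from a mean of 3.66 at 0 h. It reached log2 4 on 10 arrays, all of them treated, so the size of its change is uncertain. At 0 h, 18 h and 36 h the arrays of replicates 2 and 3 were close to each other: the SD of their difference over genes was 0.164 to 0.186, against 0.368 to 0.528 for other pairs of arrays at these times. The ACTB 3' less 5' signal, a measure of RNA quality, was 2.09 to 2.45 at 36 h, 1.47 to 2.06 at 0 h, 1.88 to 2.00 at 18 h and 1.56 to 2.34 at later times. Labels do not say that replicates were separate cultures, so the spread may be technical.

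Of the 12 tested HOX genes 7 followed 3 courses, grouped after their values were seen. HOXB2, HOXB7 and HOXC6 rose at 18 h and were higher at all 5 times, HOXD4, HOXD9 and HOXD11 rose at 36 h and then fell below their level at 0 h by 96 h, and HOXD13 fell from 18 h on. At 18 h 5 of the 12 tested genes rose and 1 fell, where 14.8% of all tested genes rose and 14.7% fell. At 36 h 9 rose and 1 fell, where 33.2% of all rose and 32.1% fell. Then 4 rose and 1 fell at 53 h, where 31.8% of all rose and 34.5% fell, and 3 rose and 2 fell at 72 h (29.3% and 39.2% of all). At 96 h 4 rose and 5 fell, against 25.1% and 35.7% of all. The median log2 change of the 12 genes was 0.39, 0.95, 0.42, 0.07 and -0.23 at the 5 times, beside 0.02, 0.02, -0.01, -0.11 and -0.10 for all tested genes. The share of HOX genes that rose was above that of all genes at 36 h and near it from 53 h on. At 18 h the 5 that rose became 2 without replicate 1 at 18 h, and 3 without replicate 3 at 0 h or with replicates 2 and 3 averaged. Over the time course as a whole 11 of 12 changed (limma moderated F test), as did 84% of all tested genes. With the ACTB signal as a covariate, an alternative chosen after the data were seen, 8 rose and 0 fell at 36 h.

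Arrays of 7, 9, 6, 5 and 4 HOX genes lay above every 0 h array at the 5 times, against 20.5%, 32.7%, 36.4%, 34.1% and 28.2% of all tested genes. Those of 1, 1, 1, 3 and 4 lay below every 0 h array, against 20.4%, 33.1%, 39.2%, 44.9% and 40.3%. Centring each array on its median moved all changes down, by 0.03, 0.12, 0.15, 0.17 and 0.19 in time order. Then 9 rose and 1 fell at 36 h, and 1 (HOXB2, by 0.77) rose and 6 fell at 96 h. Of all genes called at 96 h, 41.2% had risen before centring and 29.9% after it, and at 53 h and 72 h the share stood at 47.9% and 42.8% before, 38.5% and 34.1% after.

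**Figure D1:**
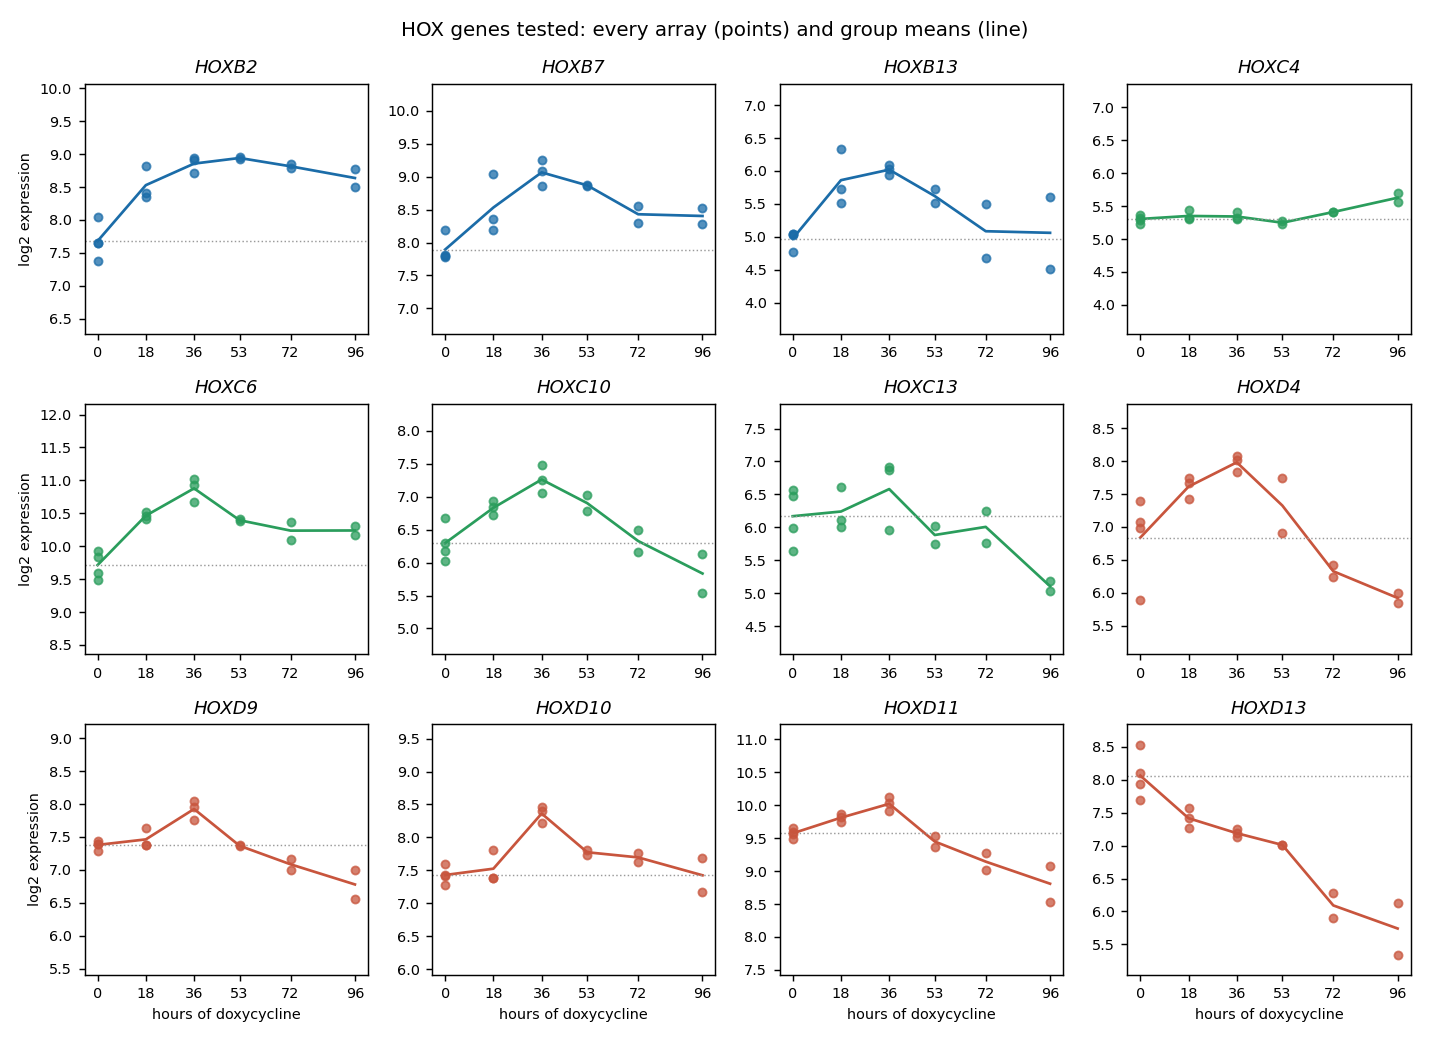
Log2 expression (vertical axis, the same span in each panel) against hours of doxycycline for the 12 HOX genes tested; each point is an array, the line joins group means, the dotted line is the mean at 0 h, and blue, green and red mark the HOXB, HOXC and HOXD clusters. HOXB2 stays above its untreated arrays at all times, HOXD11 is highest at 36 h and lowest at 96 h, and HOXD13 goes from 7.69 to 8.53 at 0 h down to 5.35 and 6.14 at 96 h.

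HOXB2, which patterns the hindbrain, rose at all 5 times. Its log2 values were 8.04, 7.65, 7.64 and 7.38 at 0 h, 8.82, 8.41 and 8.36 at 18 h, and 8.71, 8.95 and 8.91 at 36 h. The later pairs were 8.96 and 8.92 (53 h), 8.85 and 8.79 (72 h), and 8.51 and 8.77 (96 h). All 12 treated arrays lay above all 4 untreated ones. In time order the log2 changes were 0.85 ± 0.15, 1.18 ± 0.15, 1.26 ± 0.17, 1.14 ± 0.17 and 0.96 ± 0.17 (± SE) (the limma adjusted p ranged from 1.13e-05 to 0.00109). The change at 53 h is 2.40-fold.

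HOXB7, a gene of the trunk, was at 8.19, 7.79, 7.78 and 7.82 at 0 h, 9.05, 8.35 and 8.19 at 18 h and 9.25, 9.09 and 8.86 at 36 h. After that it stood at 8.88 and 8.86 (53 h), 8.30 and 8.56 (72 h), and 8.28 and 8.53 (96 h). Its treated arrays lay above all those of 0 h, by less than 0.01 for replicate 3 at 18 h. In time order it rose by 0.64 ± 0.18, 1.17 ± 0.18, 0.98 ± 0.21, 0.54 ± 0.21 and 0.51 ± 0.21 (± SE; limma adjusted p = 0.0185, 7.22e-05, 0.000927, 0.0335 and 0.0466). The last 2 calls were lost with the replicate number as a block (0.40 and 0.37, adjusted p = 0.0973 and 0.129), and the call at 18 h without replicate 1 at 18 h (0.38, adjusted p = 0.0901). Omission of 1 array in turn ended the call at 72 h in 5 of 16 cases and at 96 h in 11 of 16 (adjusted p up to 0.223 and 0.261). The other probe sets of HOXB7 had changes of 1.36 and 1.07 at 36 h and of 0.70 and 0.54 at 96 h.

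HOXC6, a gene of the thoracic level, gave a like course. Its values were 9.60, 9.92, 9.84 and 9.49 at 0 h, 10.41, 10.46 and 10.52 at 18 h and 10.67, 10.93 and 11.03 at 36 h. Later they were 10.38 and 10.41 (53 h), 10.37 and 10.10 (72 h), and 10.17 and 10.31 (96 h). No treated array overlapped with the untreated ones. The log2 change was 0.75 ± 0.11 (SE), 1.17 ± 0.11, 0.68 ± 0.13, 0.52 ± 0.13 and 0.53 ± 0.13 at the 5 times (limma adjusted p between 1.07e-06 and 0.00312). At 72 h it was 0.39 without replicate 1 of that time (adjusted p = 0.0576), and at 96 h 0.34 with arrays centred on their median (adjusted p = 0.0532). HOXB2, HOXB7 and HOXC6 make 3 of 12 tested HOX genes that rose at all 5 times, a course shared by 7.56% of all tested genes.

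HOXC10 and HOXB13, of the posterior part of their clusters, rose early and came back. HOXC10, known from the lumbar level and the hindlimb, was at 6.18, 6.68, 6.30 and 6.02 at 0 h, 6.84, 6.94 and 6.72 at 18 h and 7.05, 7.48 and 7.25 at 36 h. The last 3 times gave 6.78 and 7.02 (53 h), 6.15 and 6.50 (72 h), and 5.53 and 6.13 (96 h). Arrays of 18 h, 36 h and 53 h lay above those of 0 h, and those of 72 h and 96 h overlapped with them. At the first 3 times HOXC10 rose by 0.54 ± 0.18, 0.97 ± 0.18 and 0.61 ± 0.20 (± SE; limma adjusted p = 0.0393, 0.000348 and 0.0182). The changes at 72 h and 96 h were 0.03 and -0.46 (adjusted p = 0.897 and 0.0665). The call at 18 h was lost without the filter on low values (adjusted p = 0.0750), with replicates 2 and 3 averaged (0.0796) and in 7 of the 16 omissions of 1 array. That at 53 h was lost with arrays centred (0.0728) and without replicate 2 at 53 h (0.144). At 96 h HOXC10 fell in the fit with the replicate number as a block (-0.59, adjusted p = 0.00296) and with arrays centred (-0.65, adjusted p = 0.0160).

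HOXB13, a gene of the tail region and the prostate, was at 5.04, 5.03, 4.77 and 5.04 at 0 h, 6.34, 5.72 and 5.52 at 18 h and 6.02, 5.95 and 6.09 at 36 h. Then came 5.51 and 5.73 (53 h), 4.67 and 5.50 (72 h), and 4.51 and 5.61 (96 h). The arrays of the last 2 times lay on both sides of those of 0 h. HOXB13 rose by 0.89 ± 0.26 (SE) at 18 h and 1.05 ± 0.26 at 36 h (limma adjusted p = 0.0206 and 0.00289), and a change of 0.65 at 53 h did not pass (adjusted p = 0.0682), nor did changes of 0.11 and 0.09 at the last 2 times (0.75 and 0.819). Without replicate 1 at 18 h the change at 18 h was 0.65 (adjusted p = 0.113), and with replicates 2 and 3 averaged its adjusted p was 0.0694.

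**Figure D2:**
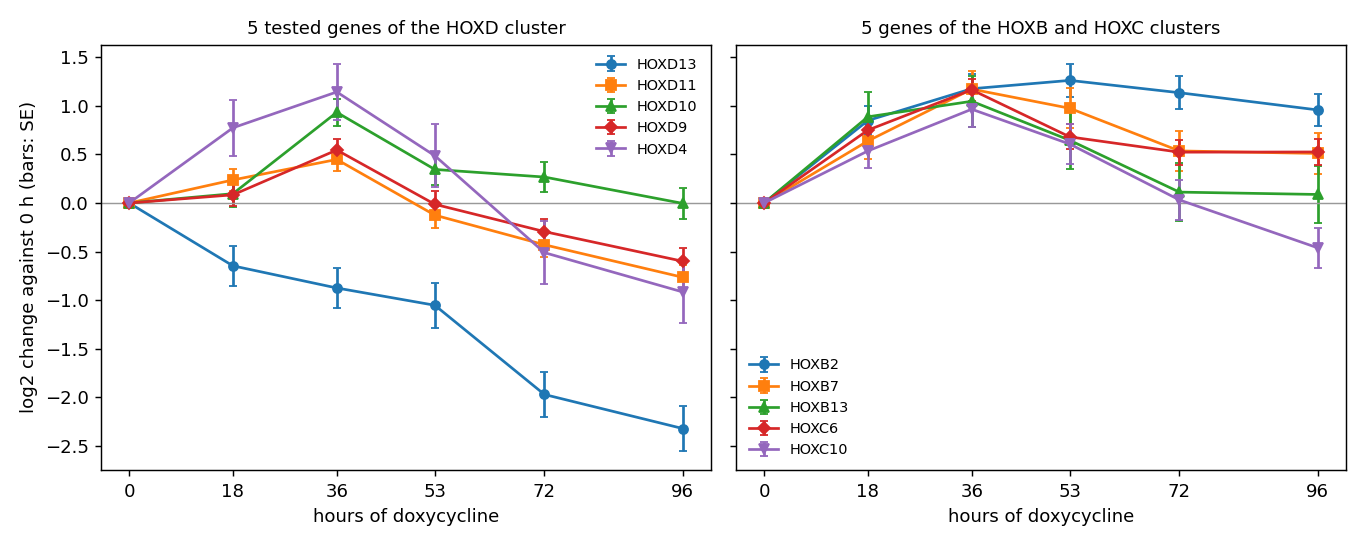
Log2 change against 0 h (vertical axis; bars are the SE of the limma fit) by hours of doxycycline for the 5 tested HOXD genes (left) and for HOXB2, HOXB7, HOXB13, HOXC6 and HOXC10 (right). HOXD13 is below 0 at each time and reaches -2.32 at 96 h, the other HOXD genes peak at 36 h, and HOXB2 stays near 1.

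In the HOXD cluster 4 of 5 tested genes rose at 36 h, where 33.2% of all tested genes rose. At 96 h 4 of 5 fell, where 35.7% of all fell. The median changes of the cluster were 0.55 and -0.77, beside 0.02 and -0.10 for all tested genes. HOXD11, which shapes the forearm, was at 9.65, 9.59, 9.56 and 9.49 at 0 h, 9.87, 9.75 and 9.82 at 18 h and 10.12, 9.91 and 10.03 at 36 h. It then read 9.36 and 9.53 (53 h), 9.27 and 9.02 (72 h), and 8.54 and 9.08 (96 h). The 18 h and 36 h arrays were all above the untreated ones and those of 72 h and 96 h all below them. HOXD11 rose by 0.45 ± 0.12 (SE) at 36 h and fell by 0.43 ± 0.13 at 72 h and by 0.77 ± 0.13 at 96 h (limma adjusted p = 0.00359, 0.00977 and 0.000207). Without replicate 2 at 72 h the change at 72 h was -0.31 (adjusted p = 0.135). Its change of 0.24 at 18 h (adjusted p = 0.139) passed with the replicate number as a block (0.21, adjusted p = 0.0316).

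HOXD9, a neighbour of HOXD10 that acts in the limb and the lumbar cord, was at 7.40, 7.40, 7.43 and 7.29 at 0 h, 7.64, 7.37 and 7.38 at 18 h and 7.76, 8.05 and 7.96 at 36 h. Values of 7.36 and 7.37 (53 h), 7.17 and 7.00 (72 h), and 6.56 and 6.99 (96 h) followed. Here too the 36 h arrays were above and the 72 h and 96 h arrays below all arrays of 0 h. HOXD9 rose by 0.55 ± 0.12 (SE) at 36 h and fell by 0.60 ± 0.13 at 96 h (limma adjusted p = 0.00105 and 0.00155). At 72 h a change of -0.29 did not pass (adjusted p = 0.0651) but did so with arrays centred (-0.46, adjusted p = 0.00803). The other probe set of HOXD9 read 2.09 to 2.15 over the arrays, near background, and gives no measure of the change.

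HOXD4, of the hindbrain and neck, was at 7.40, 7.08, 6.98 and 5.89 at 0 h, 7.43, 7.66 and 7.75 at 18 h and 7.84, 8.08 and 8.02 at 36 h. Later arrays gave 7.74 and 6.91 (53 h), 6.42 and 6.23 (72 h), and 5.85 and 5.99 (96 h). Replicate 4 of 0 h was as low as the arrays of 96 h, and the other 3 untreated arrays were above those of 72 h and 96 h. HOXD4 rose by 1.14 ± 0.29 (SE) at 36 h and fell by 0.92 ± 0.32 at 96 h (limma adjusted p = 0.00300 and 0.0252). Changes of 0.77, 0.49 and -0.51 at 18, 53 and 72 h did not pass (adjusted p = 0.0567, 0.200 and 0.177). The ACTB 3' less 5' signal was lowest of all arrays on that same array (1.47), and with that signal as a covariate the change of HOXD4 at 36 h was 0.47 (adjusted p = 0.105). At 96 h the call was lost in 5 of 16 omissions of 1 array, those of replicates 1, 2 and 3 at 0 h and of each array at 96 h (changes from -0.73 to -0.99, adjusted p from 0.0519 to 0.123), and with replicates 2 and 3 averaged (adjusted p = 0.0813). At 72 h HOXD4 fell without replicate 4 of 0 h (-0.83, adjusted p = 0.00394). The fit with the replicate block gave the same change (-0.83, adjusted p = 0.00807), but replicate 4, found at 0 h alone, does not enter changes there. The 2 fits are thus not separate results. HOXD4, HOXD9 and HOXD11 rose at 36 h and fell at 96 h, a course found in 2.35% of all tested genes; they were grouped after their values were seen.

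HOXD10, whose known roles are in the motor neurons of the lumbar cord and in the foot, rose at 36 h only. It read 7.42, 7.43, 7.28 and 7.59 at 0 h, 7.80, 7.39 and 7.39 at 18 h, and 8.47, 8.41 and 8.21 at 36 h. The later pairs were 7.81 and 7.74 (53 h), 7.76 and 7.63 (72 h), and 7.16 and 7.68 (96 h). Arrays of 36 h, 53 h and 72 h were above those of 0 h. The rise at 36 h was 0.93 ± 0.14 (SE; limma adjusted p = 5.32e-05), and the other changes in time order were 0.10, 0.35, 0.27 and -0.004 (adjusted p = 0.657, 0.0704, 0.151 and 0.986). Array weights brought the changes at 53 h and 72 h past the threshold (adjusted p = 0.0167 and 0.0147).

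HOXD13, the last gene of the cluster, needed for the digits, fell throughout. Its values were 7.69, 8.10, 7.93 and 8.53 at 0 h, 7.26, 7.57 and 7.41 at 18 h, and 7.25, 7.13 and 7.19 at 36 h. Later arrays read 7.02 and 7.00 (53 h), 6.28 and 5.90 (72 h), and 5.35 and 6.14 (96 h). All 12 treated arrays were below all 4 untreated ones. In time order the log2 changes were -0.65 ± 0.20, -0.88 ± 0.20, -1.05 ± 0.23, -1.97 ± 0.23 and -2.32 ± 0.23 (± SE; limma adjusted p = 0.0285, 0.00177, 0.00115, 4.21e-06 and 1.86e-06). The level at 96 h was 5.00-fold lower than at 0 h. HOXD13 was the tested HOX gene with the largest change at 72 h and 96 h, and 10.8% of all tested genes fell at all 5 times as it did. The call at 18 h was lost without replicate 2 or 4 of 0 h or replicate 1 or 3 of 18 h (adjusted p from 0.0586 to 0.106), without the filter on low values (0.0552) and with replicates 2 and 3 averaged (-0.70, adjusted p = 0.101). That at 36 h was lost with the ACTB signal as a covariate (-0.53, adjusted p = 0.0567). The dimmer probe set of HOXD13, at log2 4 or above on at most 1 array, had changes of -0.87, -0.93, -1.22, -1.34 and -1.41.

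HOXD13 and HOXD11, which lie on the 2 sides of HOXD12, were set against each other within each array, a pair chosen after their values were seen. Relative to 0 h the difference HOXD13 less HOXD11 moved by -0.88, -1.32, -0.93, -1.54 and -1.56 at the 5 times. Every treated array was below the 4 untreated ones, where the SD was 0.42. Two-sided exact permutation tests gave p = 0.0571 at 18 h, 0.0286 at 36 h and 0.0667 at each later time, and 0.0667 for each after adjustment over 15 tests. The lowest p that the samples allow is 0.0286 at 18 h and 36 h and 0.0667 later. HOXD13 less HOXD10 moved by -0.74, -1.81, -1.40, -2.24 and -2.32, and HOXB2 less HOXD11 by 0.61, 0.73, 1.39, 1.57 and 1.72, with the same p values. None of the 15 passed after adjustment, and with these group sizes none could have passed, so these tests cannot decide whether the pairs moved apart.

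**Figure D3:**
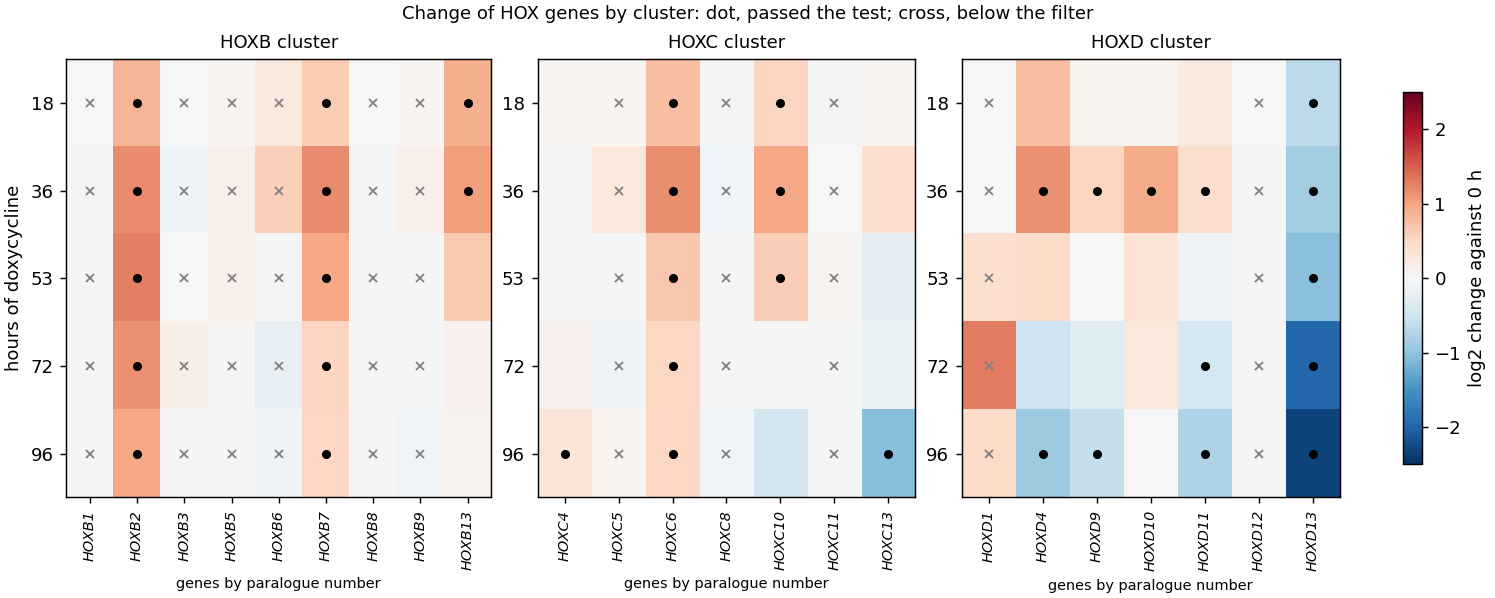
Log2 change against 0 h (colour: red higher, blue lower) of the HOXB, HOXC and HOXD genes on the array, ordered by number from head to tail (columns) at 18, 36, 53, 72 and 96 h (rows); dots mark changes past the limma threshold and crosses genes below the filter on low values. HOXB2 and HOXB7 stay red with dots, and HOXD13 is the deepest blue at 96 h. The tested HOXD genes other than HOXD13 turn from red at 36 h, which HOXD1 and HOXD12, marked with crosses, do not.

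By cluster and in time order, 3, 3, 2, 2 and 2 of the 3 tested HOXB genes rose against 0 h and 0 fell. Of 4 tested HOXC genes 2, 2, 2, 1 and 2 rose, and 1 fell, at 96 h. Of 5 tested HOXD genes 0, 4, 0, 0 and 0 rose, while 1, 1, 1, 2 and 4 fell. Of all tested genes 14.8%, 33.2%, 31.8%, 29.3% and 25.1% rose at these times, and 14.7%, 32.1%, 34.5%, 39.2% and 35.7% fell. Median changes at 96 h were 0.51 for HOXB, -0.07 for HOXC and -0.77 for HOXD, beside -0.10 for all tested genes. Genes of 1 cluster lie side by side and are not independent.

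Paralogue groups with more than 1 tested gene were groups 4, 10 and 13. In group 13, HOXB13 rose at 18 h and 36 h, HOXD13 fell at all 5 times, and HOXC13, which acts in hair and nails, fell at 96 h only. HOXC13 read 5.65, 6.57, 6.48 and 5.98 at 0 h and 5.18 and 5.03 at 96 h, with both late arrays below the untreated ones (-1.06 ± 0.31, limma adjusted p = 0.00840; 0.0633 without replicate 2 at 96 h). Its earlier changes were 0.07, 0.41, -0.29 and -0.16 (adjusted p between 0.195 and 0.881), and the one at 36 h passed without replicate 1 of that time (0.73, adjusted p = 0.0227). In group 10 both HOXC10 and HOXD10 rose at 36 h, by 0.97 and 0.93. In group 4 HOXD4 fell at 96 h while HOXC4 rose by 0.32 ± 0.10 (SE; limma adjusted p = 0.0163), from 5.23 to 5.37 at 0 h to 5.56 and 5.70. Its earlier changes were 0.05, 0.04, -0.06 and 0.11 (adjusted p between 0.386 and 0.758). The rise of HOXC4 was lost with arrays centred (0.13, adjusted p = 0.297), after a second quantile normalization (adjusted p = 0.109), with array weights (0.0707) and without replicate 2 at 96 h (0.122). The difference between paralogues itself was not tested. In the other groups at most 1 gene was tested.

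Of the 12 HOX genes not tested, 10 were below log2 4 on all arrays. HOXA2, HOXB1, HOXB8, HOXC11 and HOXD12 read at most 2.58, HOXB5 and HOXC8 at most 2.76 and 3.00, and HOXB3 and HOXB9 at most 3.49 and 3.85. HOXB6 was above log2 4 on 1 array, replicate 1 at 36 h (4.50), and HOXC5 on 1, replicate 3 at 36 h (4.31). HOXD1, the first gene of its cluster, read 2.55 to 2.60 at 0 h, 18 h and 36 h, 3.12 and 2.85 at 53 h, 3.82 and 3.93 at 72 h, and 2.60 and 3.51 at 96 h. With no filter its log2 change at 72 h was 1.30 ± 0.17 (SE; limma adjusted p = 3.09e-05), but all its arrays were below log2 4 and its other probe set did not move (-0.02). The size of a change at this level is uncertain.

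The drop late in the course was also seen without the untreated arrays, though with the same 2 arrays of 96 h. At 96 h against 18 h limma called 7 of 12 HOX genes lower and 0 higher (30% and 19.5% of all tested genes), and 1, HOXC4, had a positive change with an unadjusted p below 0.05. HOXD4 fell by 1.69 ± 0.34 (SE), HOXD13 by 1.68 ± 0.24, HOXC13 by 1.14 ± 0.32, HOXD11 by 1.00 ± 0.14, HOXC10 by 1.00 ± 0.22, HOXB13 by 0.80 ± 0.31 and HOXD9 by 0.68 ± 0.14, with limma adjusted p between 5.81e-05 and 0.0469. Of these, HOXC10 and HOXB13 had risen at 18 h and were not called lower at 96 h against 0 h. Arrays of 7 HOX genes at 96 h lay below all those of 18 h and of 1 above (41% and 25.9% of all tested genes), and those of HOXB13 overlapped. HOXB2, HOXB7 and HOXC6 were not called, with changes of 0.11, -0.13 and -0.22 (limma adjusted p = 0.645, 0.656 and 0.192). HOXC6 was still 1 of the 7 genes with all arrays of 96 h below those of 18 h. At 96 h against 72 h limma called 0 of 12 (17.1% of all tested genes rose and 10.1% fell), 2 had a negative change with an unadjusted p below 0.05, and the fits without replicate 2 at 96 h and with the replicate block called 3 and 1 lower.

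A list of 11 TALE homeodomain genes held the PBX, MEIS and PKNOX cofactors of HOX proteins, and also TGIF1 and TGIF2. With TGIF1 and TGIF2 included, 8 were tested. Of these 8 genes 2 rose and 2 fell at 36 h, and 3 rose and 5 fell at 96 h. Of all tested genes 33.2% rose and 32.1% fell at 36 h, and 25.1% rose and 35.7% fell at 96 h. PKNOX2 rose by 4.21 ± 0.36 (SE) at 96 h (from a mean of 4.05 to 8.27), after 2.46 at 36 h. MEIS2 rose by 1.53 ± 0.21 at 96 h. PBX3 reached log2 4 on 2 arrays only, those of 96 h (mean 4.72, against 3.44 at 0 h), so it passed the filter through the time at which it was called and the size of its change is uncertain. TGIF2, a repressor of the same class, fell by 1.57 ± 0.14. Limma adjusted p for PKNOX2, MEIS2 and TGIF2 lay between 4.55e-07 and 4.00e-05. The median change of the list was 0.00 at 36 h and -0.53 at 96 h.

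Polycomb genes moved both ways. Of 18 tested, 9 rose and 7 fell at 36 h, and 2 rose and 9 fell at 96 h, with medians of 0.20 and -0.29 (all tested genes: 33.2% and 32.1% at 36 h, 25.1% and 35.7% at 96 h, medians 0.02 and -0.10). EZH2, a histone methyltransferase of Polycomb, fell by 1.37 ± 0.15 (SE) at 96 h, and its partners SUZ12 and RBBP4 fell by 0.98 ± 0.13 and 0.71 ± 0.08. PHC2, of the complex that compacts chromatin, rose by 0.74 ± 0.11. Limma adjusted p for these genes at 96 h lay between 6.27e-06 and 4.64e-05. At 36 h EZH2 fell by 1.38 ± 0.14, while EZH1, also a methyltransferase of Polycomb, rose by 1.16 ± 0.15 (limma adjusted p = 1.17e-06 and 1.23e-05). A further list held Trithorax members and other chromatin genes, such as MLLT3 and AFF1. In it 3 of 10 tested rose and 2 fell at 36 h, read against the same shares of all genes. At 96 h 1 rose and 5 fell. There the MLL complex members RBBP5 and ASH2L fell by 0.69 ± 0.12 and 0.42 ± 0.09, MLLT3, which binds acetylated histones, fell by 1.15 ± 0.23, and AFF1, of the elongation complex, rose by 0.33 ± 0.09 (limma adjusted p between 0.000197 and 0.00719). Of 10 tested factors known to act on HOX genes from upstream, 4 rose and 3 fell at 36 h, and 2 rose and 2 fell at 96 h, against the same shares. FGFR1 rose by 1.19 ± 0.12, and GMNN and CTCF fell by 0.77 ± 0.18 and 0.54 ± 0.11 (limma adjusted p between 2.33e-06 and 0.00182). The retinoic acid receptor RARB, also counted as a rise at 96 h, was near background until 36 h and tested through its later arrays alone. Its mean was 5.00 at 96 h and 1.98 at 0 h, and the size of its change is uncertain.

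Homeobox genes outside the clusters and genes beside them gave a background for position. Of 21 listed homeobox genes only 3 were tested: DLX2 rose at all 5 times, by 1.45 ± 0.22 (SE) at 96 h, and DLX5 fell by 2.65 ± 0.38 (limma adjusted p = 7.09e-05 and 5.36e-05). MEOX1 reached log2 4 on 2 arrays only, those of 72 h (mean 4.86), with means of 2.81 at 0 h and 3.50 at 96 h, so no size is given for its change. The CDX genes, which act before HOX genes in the embryo, stayed below log2 2.4 on all arrays. Of 16 tested genes listed beside the clusters, 8 rose and 3 fell at 36 h (33.2% and 32.1% of all tested genes) and 4 rose and 6 fell at 96 h (25.1% and 35.7% of all). Beside the HOXD cluster, MTX2 at 78.5 kb changed by -0.13 at 36 h (adjusted p = 0.208) and fell by 0.55 ± 0.10 at 96 h (limma adjusted p = 0.000404). CALCOCO1, 211.4 kb from the HOXC cluster, rose by 2.97 ± 0.23 at 36 h and 1.43 ± 0.26 at 96 h (limma adjusted p = 1.48e-07 and 0.000398). CBX5, a heterochromatin protein encoded 174.9 kb from the HOXC cluster, and ATP5MC1, a subunit of the ATP synthase encoded 164.0 kb from HOXB, fell by 0.86 ± 0.13 and 1.20 ± 0.12 at 96 h (limma adjusted p = 5.95e-05 and 2.00e-06). Distances are from the RefSeq table.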

How the data were processed

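The authors deposited log2 expression values of Affymetrix arrays; the submitters' processing notes name GCRMA, whose version is not given in the sources used here. Groups came from the labels. Of 22277 probe sets 19070 have 1 symbol, 1043 several and 2164 none; 19058 matched RefSeq by Entrez number and 0 symbols changed. Genes with log2 4 or more on at least 2 of 16 arrays (7304) were fitted together with limma 3.58.1 (R 4.3.3; trended eBayes, 10 residual df), with Benjamini-Hochberg adjustment. The fit was tested on simulated data, where it missed part of the true changes of 1 log2 unit, so a change that did not pass is not shown to be absent. The number of arrays limits the precision. All HOX genes were named, with every array's value where a gene passed at 2 or more times (and of HOXD10 and HOXD1, chosen after their values were seen), and from each other list the members past the threshold at 96 h with the 4 smallest adjusted p. EZH1 was named beside EZH2 as well. The members and lists were chosen with earlier results of these data known, and groups of HOX genes after their values were seen. Alternatives numbered 11 beside leaving out each array, and 1 (ACTB covariate) was added after the data were seen. Same-numbered replicates deviated together at 0 h, 18 h and 36 h (correlations 0.214 to 0.632), although numbers 2 and 3 were not told apart, so the replicate number was also fitted as a block. The block was fitted at 53 h, 72 h and 96 h too, where such a link between replicates was not examined. Replicate 4 exists at 0 h alone and so does not enter the changes in that fit.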

Additional observations from a re-analysis of the deposited data

Results flagged for a closer look

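At 0 h, 1 of the 4 arrays stood apart for HOXB7 and for HOXB13. For HOXB7 replicate 1 (8.19) was above the others (7.78 to 7.82), with a gap of 0.896 of the range. For HOXB13 replicate 3 (4.77) was below the others (5.03 to 5.04), with a gap of 0.958 of the range. Dixon's limit for 4 samples is 0.829, and chance passes it in about 1 in 20 groups; 12 HOX genes were examined.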

How the results depend on the processing

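Of 179 counts of HOX genes under the alternatives other than leaving out an array, 156 stayed within 1.5 times the reported count and 23 did not. When the probe sets marked _x_at or _s_at were dropped, HOXB7, HOXC6, HOXC13 and the brighter probe set of HOXD13 went with them. Then 3 rose and 0 fell at 18 h, 0 fell at 36 h, 2 rose and 0 fell at 53 h, 1 rose and 1 fell at 72 h, 2 rose and 3 fell at 96 h, and 7 changed over the time course. With replicates 2 and 3 averaged 3 rose and 0 fell at 18 h. With no filter 0 fell at 18 h, 2 at 36 h and 1 at 96 h against 72 h. With the 2 groups alone 0 fell at 18 h and 1 at 96 h against 72 h. The replicate block gave 1 lower at 96 h against 72 h, array weights gave 4 lower at 72 h, the ACTB covariate 0 lower at 36 h, and centring 1 higher at 96 h. The mean of all probe sets and eBayes without a trend each gave 1 higher at 96 h against 18 h. Other than at HOXC10 (96 h), HOXD4 (72 h), HOXD11 (18 h) and HOXB7 (72 h and 96 h), the replicate block changed no call of a HOX gene against 0 h. Apart from sizes of the gene sets and samples, the cause of these shifts was not tested.

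Changes of sign were among values that did not pass in either fit. With centring HOXB13 was at -0.054 (72 h) and -0.10 (96 h), HOXC4 at -0.077 (36 h) and -0.061 (72 h), and HOXC10 at -0.13 (72 h). A second quantile normalization gave HOXB13 -0.0074 (72 h) and -0.061 (96 h), HOXC4 -0.0058 (18 h) and -0.067 (36 h), and HOXC10 -0.0060 (72 h). Array weights gave HOXC4 -0.014 (36 h), HOXC10 -0.10 (72 h), HOXC13 -0.10 (18 h), HOXD9 -0.016 (18 h) and HOXD10 0.057 (96 h). The replicate block gave HOXC10 -0.093 (72 h).

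Leaving out each array in turn gave 2 to 6 higher and 0 to 1 lower at 18 h, 9 to 10 and 1 at 36 h, 3 to 6 and 1 at 53 h, 1 to 3 and 1 to 3 at 72 h, 2 to 4 and 4 to 6 at 96 h, 0 higher and 6 to 7 lower at 96 h against 18 h, 0 higher and 0 to 3 lower at 96 h against 72 h, and 10 to 11 over the time course. The lowest counts of rises came without replicate 1 at 18 h (2), replicate 1 at 72 h (1) and replicate 2 at 96 h (2), each at its own time, and without replicate 2 at 72 h 1 fell there. Omitting replicate 3 at 0 h left 3 higher at 18 h. At 96 h against 72 h 3 fell without replicate 2 at 96 h and 1 without replicate 1 at 36 h. The 1 HOX gene that fell at 18 h, HOXD13, was lost in the 4 omissions named beside it. Signs turned within -0.30 to 0.52 (HOXB13, 72 h), -0.46 to 0.63 (HOXB13, 96 h), -0.14 to 0.21 (HOXC10, 72 h), -0.11 to 0.20 (HOXC13, 18 h), -0.40 to 0.075 (HOXC13, 72 h), -0.0014 to 0.13 (HOXD9, 18 h), -0.044 to 0.0048 (HOXD9, 53 h), -0.042 to 0.17 (HOXD10, 18 h) and -0.26 to 0.26 (HOXD10, 96 h).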
